A study of Mus musculus with 2 samples.

Results

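Lung B cells were the cells that the authors had annotated as B cells in the deposited table of cells, and all of them were kept. They numbered 1759 of 18397 cells (9.56%), of which 919 came from the control diet (CD) library and 840 from the high-fat diet (HFD) library. B cells were the 4th most numerous of the 17 annotated cell types and filled 5 of the 51 fine clusters, namely clusters 3, 18, 21, 48 and 49. These clusters held no cell of another annotation.

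Both libraries came from whole, perfused lungs of female BALB/c mice aged 20 weeks, which had entered the study at 4 weeks and stayed on their diet for 16 weeks. Energy in CD was 13% fat, 27% protein and 60% carbohydrate, and in HFD it was 60% fat from lard, 20% protein and 20% carbohydrate. Lungs were minced, digested with Liberase and DNase, filtered and depleted of red blood cells, and neither a sort nor a gate for B cells is stated. Each diet was represented by 1 library with an unstated number of mice, so no test between diets was possible, no p-value was computed, and every interval covers counting error only.

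B cells are lymphocytes that recognise antigen through a membrane-bound immunoglobulin, the B cell receptor, and that present antigen to T cells. After activation they can become germinal centre cells, memory cells or antibody-secreting plasma cells. In the lung, B cells include cells held in the vessels, cells that have moved into the tissue and, in inflammation, cells of organised lymphoid follicles.

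The label could not be checked against marker levels, because values of single genes per cell were not analysed here. The deposited table of genes marks only which genes varied most over all cells of both diets. Among all 19278 listed genes, 1000 (5.19%) carried this flag, a number set by the authors. All 3 B cell markers carried it. Cd79a and Cd79b encode the signalling chains of the B cell receptor and Ms4a1 encodes CD20, a surface protein of mature B cells. In GRCm38, these genes lie at chr7:24897381-24902197 (Cd79a, plus strand), chr11:106311341-106314762 (Cd79b, minus strand) and chr19:11249675-11266241 (Ms4a1, minus strand).

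Of 17 further B cell genes, 15 were flagged as highly variable, among them Ighm and Ighd, the heavy chains of IgM and IgD, and Cr2 and Fcer2a, the receptors CD21 and CD23. The others were Cd22, an inhibitory receptor, and Blk, a kinase of the receptor pathway. Among 6 genes of plasma cells, Jchain, Mzb1 and Igha carried the flag, whereas Xbp1, Sdc1 and Prdm1 did not. None of 3 germinal centre genes was flagged (Bcl6, Mef2b and Rgs13), and of 4 genes of B-1 or memory-like cells only Cd80 was. For the other cells that a lung digest could hold, the flag was carried by 5 of 5 T cell genes, 4 of 4 NK cell genes, 3 of 3 myeloid genes and neither of the endothelial genes Pecam1 and Cdh5. By the study's methods, the flag required a minimum of normalised expression. It gives no level beyond that and no direction between diets, and it does not place a gene in a cluster.

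On the authors' 2-dimensional UMAP of all cells, on which cells of similar expression lie close together, B cells stood apart from every other cell type. The 15 nearest cells of each B cell were B cells in 100% of cases, for every fine cluster. The same was true of 15 other types, and of the 17 types dendritic cells alone had a lower value (98.9%). The smallest gap between a B cell and a cell of another annotation was 0.237 map units, in cluster 49. For comparison, the median distance of cluster 3 cells from the centre of their cluster was 0.0330 units. The fine clusters were made by the authors on this same map, so their position and their separation are a description and were not tested.

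Cluster 3 and most cells of clusters 18 and 21 formed a single body. Cluster 3 held 907 cells (51.6% of B cells) and made up its centre and lower part. Cluster 18 held 425 cells (24.2%), 353 of them along the left side of the body, and cluster 21 held 375 cells (21.3%), 316 of them along its top. Their borders were not gaps, as the nearest cells of clusters 3 and 21 lay 0.000924 units apart and those of cluster 18 lay 0.00125 units from another B cell cluster. Between 97.7% and 98.5% of the nearest cells of these clusters still belonged to the same cluster. Clusters 48 and 49 were small and separate, with 31 and 21 cells, and lay at least 0.0383 and 0.0597 units from all other B cells.

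**Figure D1:**
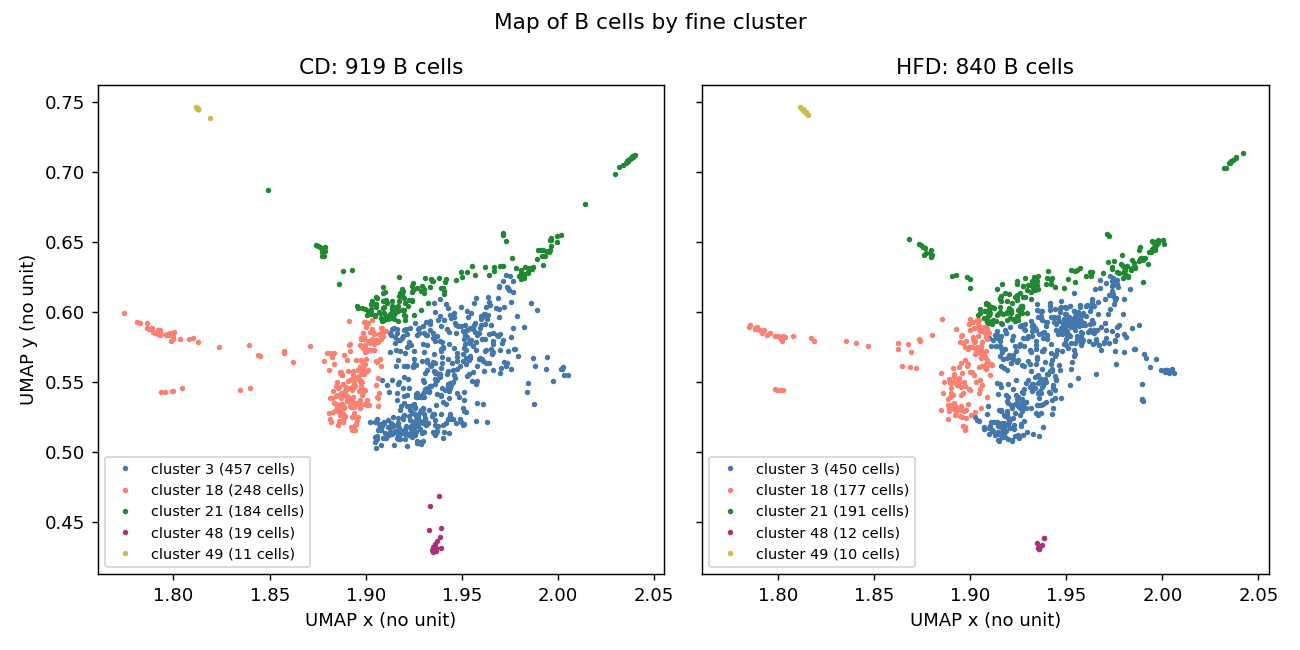
Position of each B cell on the authors' UMAP (both axes have no unit) in CD (919 cells, left) and HFD (840 cells, right), coloured by fine cluster. All 5 clusters were present in both libraries, clusters 3, 18 and 21 touch, and clusters 48 and 49 lie apart from them.

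The next comparison asked which of the fine clusters differed between diets. Cluster 18 was the one B cell cluster with a lower share in HFD and separate intervals. It held 248 of 919 CD B cells (27.0%, exact 95% interval 24.1 to 29.98) but 177 of 840 HFD B cells (21.1%, 18.4 to 24.0), and the ratio of these shares was 0.781 (0.640 to 0.951). Its share of B cells was thus 5.91 percentage points lower in HFD.

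The other main clusters took a somewhat larger part of the B cells in HFD, with intervals that overlapped. Cluster 3 took up 49.7% of CD B cells (46.4 to 53.0, 457 cells) against 53.6% of HFD B cells (50.1 to 57.0, 450 cells). For cluster 21 these shares were 20.0% (17.5 to 22.8, 184 cells) and 22.7% (19.9 to 25.7, 191 cells). Their ratios were 1.08 (0.944 to 1.23) and 1.14 (0.923 to 1.40).

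For the small clusters no difference was detectable at these cell numbers. Cluster 48 held 19 CD and 12 HFD cells, or 2.07% (1.25 to 3.21) and 1.43% (0.740 to 2.48) of B cells. Cluster 49 held 11 CD and 10 HFD cells, or 1.20% (0.599 to 2.13) and 1.19% (0.572 to 2.18). The intervals of their ratios ran from 0.306 to 1.50 and from 0.379 to 2.58, so a change of the size seen in cluster 18 could have been missed.

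**Figure D2:**
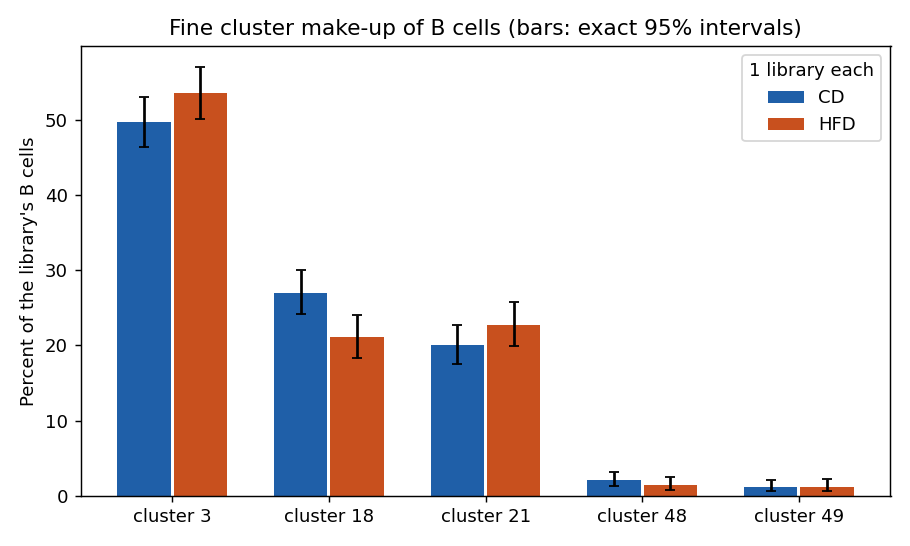
Percent of each library's B cells (y axis) in each fine cluster (x axis), for CD (919 B cells) and HFD (840 B cells), with exact 95% binomial intervals as error bars and 1 library per diet. Cluster 18 alone has bars whose intervals do not overlap, at 27.0% in CD and 21.1% in HFD.

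Shares within B cells depend on each other, so clusters were also set against each other in pairs. For each cluster 3 cell there were 0.543 cluster 18 cells in CD but 0.393 in HFD, and the ratio of these numbers was 0.725 (conditional exact 95% interval 0.570 to 0.921). Per cluster 21 cell the ratio was 0.688 (0.515 to 0.918). Clusters 21 and 3 kept nearly the same proportion, with a ratio of 1.05 (0.823 to 1.35). Clusters 3 and 21 together held 641 cells in each library, against which cluster 18 had a ratio of 0.714 (0.568 to 0.896).

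As a share of all cells of the library, cluster 18 stood at 2.82% of CD cells (2.48 to 3.19) against 1.84% of HFD cells (1.58 to 2.13), which gives a ratio of 0.653 (0.536 to 0.796). This was the 4th lowest ratio among the 51 fine clusters, of which 6 (11.8%) had a lower share in HFD and separate intervals. The same ratio was 0.902 (0.790 to 1.03) in cluster 3, 0.9504 (0.772 to 1.17) in cluster 21, 0.578 (0.256 to 1.25) in cluster 48 and 0.832 (0.317 to 2.16) in cluster 49. All 5 ratios were therefore below 1, but only that of cluster 18 had an interval below 1. The 1 of 5 with separate intervals stands against the background of 11.8%, which leaves this count without weight as a result about B cells. Fine clusters were defined on the same cells, and whether their defining genes differed between diets was not analysed here, so cluster sizes are given as a description.

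B cells were then set against T cells, the other large group of lymphocytes. As a whole, B cells had a ratio of shares of all cells of 0.837 (0.761 to 0.920) and were 1 of the 2 types (11.8% of 17) with a lower share and separate intervals. As a share of immune cells the ratio was 0.911 (0.829 to 1.001), with an interval that included 1. The ratio of shares of all cells depended on minimums on depth. It was 0.860 (0.781 to 0.947) with at least 1500 UMIs, 0.934 (0.842 to 1.04) with at least 2000, 1.09 (0.957 to 1.23) with at least 2500, 1.05 (0.896 to 1.24) with at least 3000 and 1.01 (0.892 to 1.14) with at least 1000 genes. When the UMIs of HFD cells were first scaled to the median of their type in CD, it was 0.857 (0.770 to 0.953) with at least 2000 UMIs and 0.737 (0.616 to 0.881) with at least 3000. Relative to T cells the difference was smaller, with 0.651 B cells per T cell in CD (919 to 1411 cells) and 0.584 in HFD (840 to 1439 cells). This ratio of 0.896 (0.794 to 1.01) had an interval that included 1.

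NK cells and pooled groups of immune cells gave values near this one. Per NK cell, the ratio between diets was 0.889 (0.741 to 1.07), and per T or NK cell it was 0.895 (0.797 to 1.01). Per cell of all other immune types it was 0.885 (0.794 to 0.987), and per myeloid cell 0.870 (0.766 to 0.988), both with intervals below 1. The value per other immune cell rests on the same cells as the share of immune cells, whose interval of 0.829 to 1.001 included 1. Their intervals were computed in different ways, so they are not separate results. B cells were fewer in HFD relative to 15 of the 16 other types, 7 of them with intervals below 1, and the exception was alveolar macrophages (1.01, 0.828 to 1.22). The lowest ratios were 0.506 (0.411 to 0.623) per alveolar type I cell, 0.545 (0.334 to 0.876) per ciliated cell and 0.577 (0.492 to 0.676) per alveolar type II cell. As shares of all cells, these types themselves had ratios of 1.65 (1.38 to 1.99), 1.54 (0.966 to 2.48) and 1.45 (1.28 to 1.65). Their higher shares in HFD lower these values, which do not describe B cells alone. The comparisons with other types share the same B cells and are not independent.

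The difference relative to T cells differed among the B cell clusters. For each T cell there were 0.176 cluster 18 cells in CD but 0.123 in HFD, with a ratio of 0.700 (0.566 to 0.864). Cluster 3 and cluster 21 had ratios of 0.966 (0.829 to 1.12) and 1.02 (0.816 to 1.27). Without cluster 18, B cells per T cell had a ratio of 0.969 (0.849 to 1.11). Without cluster 3 it was 0.828 (0.708 to 0.968) and without cluster 21 it was 0.866 (0.760 to 0.987), both with intervals below 1, and without cluster 48 or 49 it was 0.902 or 0.896. These values follow from the ratios of the single clusters and are no separate result.

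T cells were not uniform as a reference either. All B cells taken against each of the 6 T cell clusters gave ratios from 0.692 against cluster 43 (28 CD and 37 HFD cells) to 1.14 against cluster 17. Of these, 5 were below 1, and the interval excluded 1 for cluster 19 alone (0.801, 0.642 to 0.9993).

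Depth per cell was measured by unique molecular identifiers (UMIs), each of which marks 1 captured transcript. The CD library had 2468 UMIs in its median B cell and the HFD library 2784, with a ratio of 1.13 (1.07 to 1.18) and intervals apart. Median UMIs were likewise higher in HFD, with intervals apart, in 7 of the 17 types (41.2%). T cells had 3518 and 3927 UMIs, a ratio of 1.12, and NK cells 2097 and 2717, a ratio of 1.30. Of the 17 types, 14 had more UMIs in HFD, and B cells ranked 9th by the size of their ratio.

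Clusters 3 and 18 carried this difference with intervals apart. The median of cluster 3 was 2476 UMIs for CD cells (2424 to 2561) against 2828.5 for HFD cells (2732 to 2946), and cluster 18 had 2482.5 (2354 to 2626) and 2795 (2675 to 2932). Cluster 21 had 2335 (2229 to 2426) and 2454 (2358 to 2707), with intervals that overlapped. The median of cluster 18 included 72 deep cells that lay apart on the map, with a median of 6094 UMIs. Its other 353 cells had medians of 2347.5 UMIs in CD (2262 to 2439) against 2668 in HFD (2491 to 2771), lower values than those of cluster 3 with intervals that overlapped in each library.

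The small clusters were deeper. For cluster 48 the medians were 5098 UMIs in CD cells (3890 to 6560) against 6029 in HFD cells (4553 to 7336). Cluster 49 had 7420 (4544 to 11074) and 6752.5 (2853 to 9241), and its ratio of 0.910 (0.258 to 2.03) was the one below 1 among the 5 clusters. Neither difference was detectable with 10 to 19 cells per library.

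Detected genes followed UMIs. Median B cells held 1025 genes in CD against 1100 in HFD, with a ratio of 1.07 (1.03 to 1.12), again a difference with intervals apart that 41.2% of types showed. Among cells of like UMIs, taken in 6 ranges from 1000 to 6000 UMIs, B cells of HFD had 0.929 to 1.02 times the genes of CD cells, and every interval of these ratios included 1. Of the clusters, cluster 3 had separate intervals, at 1015 genes for CD cells (988 to 1053) against 1111 for HFD cells (1080 to 1135). Clusters 18 and 21 had overlapping intervals, with medians of 1040.5 and 1096 genes in cluster 18 and of 986 and 1024 in cluster 21.

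The percent of UMIs from mitochondrial genes, which is often high in damaged cells, had a median of 3.67% in CD B cells and 3.80% in HFD B cells, a ratio of 1.04 (0.988 to 1.09) whose interval included 1. Across types, 29.4% were higher in HFD with intervals apart, and B cells were not among them. All 5 clusters had a higher median in HFD, each with overlapping intervals. The difference was largest in cluster 48, where the 19 CD cells had 3.23% (2.50 to 3.67) against 4.05% (3.39 to 4.61) for the 12 HFD cells. B cells over 10% numbered 10 among CD cells (1.09%, 0.523 to 1.99) against 21 among HFD cells (2.50%, 1.55 to 3.80), which overlapped as well.

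B cells were small in UMI content, and more of them had few UMIs in CD than in HFD. Fewer than 2000 UMIs were found in 20.5% of CD B cells (17.9 to 23.2) but in 10.6% of HFD B cells (8.60 to 12.9). In T cells the same shares were 7.23% (5.93 to 8.71) and 6.81% (5.56 to 8.24). The lowest count in the deposited table was 1000 UMIs in CD and 1001 in HFD, although the study's methods state a minimum of 500.

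Within ranges of UMIs, B cells per T cell did not differ between diets in a single direction. From 1500 to 2000 UMIs the ratio of HFD to CD was 0.518 (0.317 to 0.850), with 146 CD and 61 HFD B cells. It was 1.03 (0.730 to 1.45) from 2000 to 2500 UMIs, 1.74 (1.29 to 2.36) from 2500 to 3000 and 1.79 (1.38 to 2.32) from 3000 to 4000. Above that it was again below 1, at 0.627 (0.427 to 0.919) from 4000 to 6000 UMIs and 0.578 (0.372 to 0.900) from 6000 UMIs.

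Both types also lay at more UMIs in HFD. The most frequent range of B cells was 2000 to 2500 UMIs in CD (30.8%) and 2500 to 3000 in HFD (25.2%), and that of T cells was 3000 to 4000 in CD (36.2%) and 4000 to 6000 in HFD (37.5%). The ratio of B cells per T cell moved with a minimum on UMIs. It was 0.913 (0.808 to 1.03) with at least 1500 UMIs, a limit chosen after seeing the data, and 1.003 (0.881 to 1.14) with at least 2000. With at least 2500 UMIs, a limit chosen after seeing the data, B cells per T cell had a ratio of 1.16 (1.001 to 1.35), and with at least 3000 it was 1.07 (0.890 to 1.29). The UMIs of HFD cells were then divided by the ratio of median UMIs of their type. After this, a minimum of 2000, also chosen after seeing the data, gave 0.916 (0.803 to 1.05). A minimum of 3000 gave 0.805 (0.658 to 0.985). The number of B cells per T cell thus had no direction that held over these limits, and the part of depth in it cannot be told apart from that of diet.

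**Figure D3:**
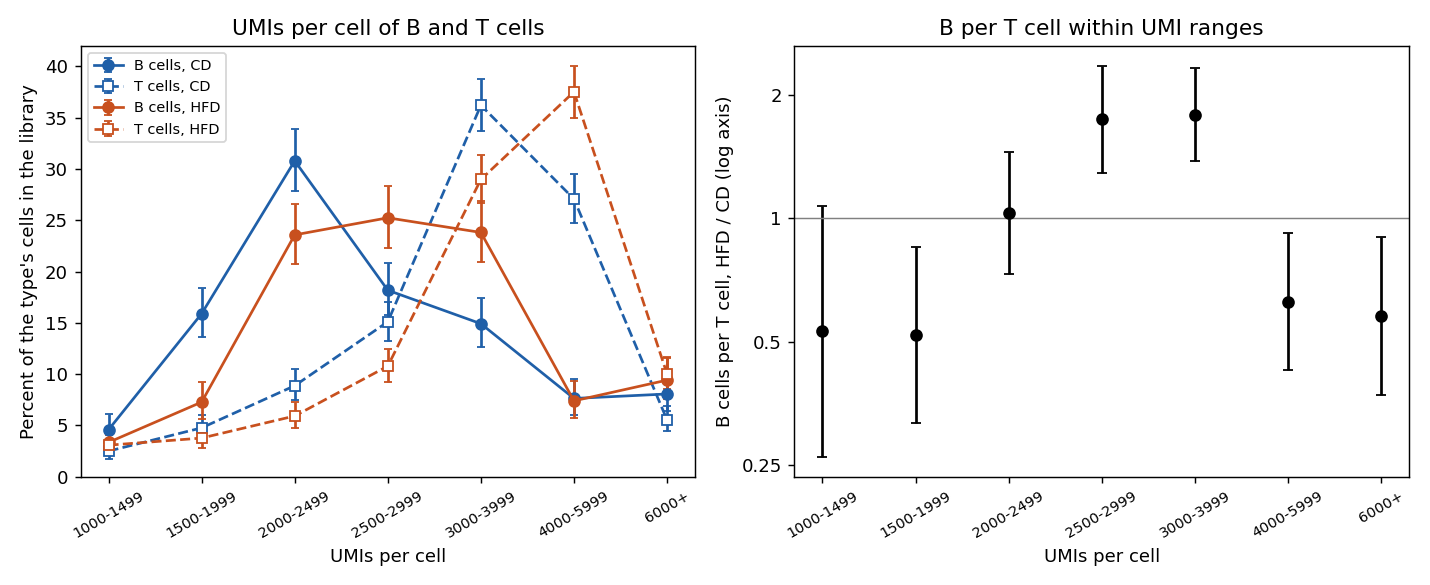
Percent of B and T cells of each library in ranges of UMIs per cell (left) and the HFD to CD ratio of B cells per T cell within each range (right, log axis), with 95% intervals. B cells are most frequent from 2000 to 2500 UMIs in CD and from 2500 to 3000 in HFD, and the interval of the ratio lies above 1 in the ranges from 2500 to 4000 UMIs.

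Among the clusters, the ratio of cluster 18 within B cells ranged from 0.689 to 0.808 over 9 alternatives. It was 0.753 (0.607 to 0.932) with at least 2000 UMIs, and 0.755 (0.533 to 1.07) with at least 3000, where the interval included 1. With HFD UMIs divided by the ratio of medians and a minimum of 3000 UMIs, it was 0.808 (0.547 to 1.18). The small clusters moved more, and with at least 3000 UMIs cluster 49 went from 0.995 to 0.599 (0.209 to 1.64) and cluster 48 from 0.691 to 0.582 (0.253 to 1.29). With the division and the same minimum, cluster 49 was at 0.900 (0.314 to 2.46) and cluster 48 at 0.874 (0.381 to 1.94).

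The map held more structure than the 5 labels. Joining B cells less than 0.01 units apart, a distance chosen after seeing the map, gave 6 islands of at least 20 cells and 26 cells in smaller groups. The main body held 1576 cells (811 CD, 765 HFD) of clusters 3, 18 and 21, with a median of 2544 UMIs and 1033 genes. Clusters 18 and 21 each also held cells away from this body, so that neither was a single group of cells on the map.

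The island at the far left belonged to cluster 18 and had 55 cells, 32 in CD and 23 in HFD. Its median was 6383 UMIs (5543 to 7754) and 2560 genes (2249 to 2859). At like UMIs, from 4891 to 8669, its 27 cells had a median of 2560 genes (2279 to 2788), compared to 1918.5 (1812 to 1954) in 66 cells of the main body. More genes were thus detected in this island than in the main body within this range. The range of each island spanned its own quartiles of UMIs, and UMIs were not matched within it. Over all its cells the main body had a median of only 2544 UMIs, and the part of depth in this difference was not tested. The 3112 cells of the range that were no B cells had 2302.5 (2285 to 2317), within the island's interval. All other B cells of that depth had 1954 (1915 to 2063) and T cells had 1717.5 (1677 to 1754), both below it. Cluster 49 resembled it in this respect, with 2660 genes (2110 to 2873) in 11 cells from 4623 to 9179 UMIs and 1869.5 (1718 to 1936) in 84 cells of the main body. The 3778 cells of that depth that were no B cells had 2264 (2246 to 2283), which lay within the interval of cluster 49. T cells of that depth had 1639 (1615 to 1681) and all other B cells had 1973 (1928 to 2091), both below that interval. Doublets, that is droplets with more than 1 cell, were not called, and their part in these islands was not tested.

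The island of cluster 48 had a median of 5536 UMIs, and no difference in genes from the main body was detectable at like UMIs. From 4638 to 6573 UMIs, the 15 cells of its island had 1833 genes (1606 to 1935) and the 57 cells of the main body had 1718 (1626 to 1879). The mitochondrial percent of these 15 cells was lower, at 2.92% (2.50 to 3.63) compared to 4.40% (3.94 to 4.73). Over the whole island the 17 CD cells had 2.96% (2.50 to 3.63) and the 12 HFD cells had 4.05% (3.39 to 4.61), with intervals that overlapped each other, and that of the HFD cells also overlapped the main body.

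The island at the upper right belonged to cluster 21 and, unlike the island at the far left, had comparatively few genes for its UMIs. It had 32 cells with a median of 14861 UMIs (11911 to 18164) but 2124 genes (1956 to 2411), and a mitochondrial percent of 1.81% (1.19 to 2.67). Between 10459 and 18458 UMIs, 16 of its cells had 2176.5 genes (1956 to 2496), whereas 18 other B cells of that depth had 3559.5 (2658 to 3942), 24 T cells had 3252.5 (2925 to 3703) and all 1491 cells that were no B cells, T cells included, had 3596 (3567 to 3625). The 8 cells of the main body at this depth lay closer, with 2591.5 genes (2305 to 3325) and an interval that overlapped that of the island. These cells thus held many transcripts of comparatively few genes.

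Of these 32 cells, 22 were CD cells (2.39% of CD B cells, 1.51 to 3.60) and 10 HFD cells (1.19%, 0.572 to 2.18). Their ratio as a share of all cells was 0.416 (0.176 to 0.916), with an interval below 1, although the intervals of their shares of B cells overlapped. No cell type is given to them here, since the genes that they expressed were not analysed. The last island, also of cluster 21, held 9 CD and 11 HFD cells. At like UMIs, 10 of its cells had 1338 genes (1274 to 1570) and 338 cells of the main body had 1284 (1270 to 1303).

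**Figure D4:**
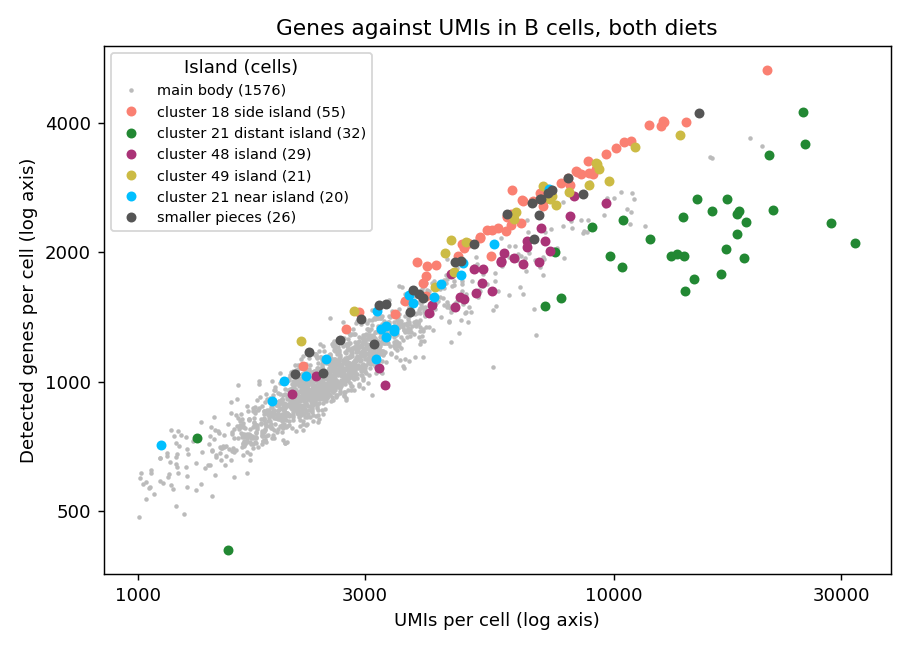
Detected genes (y axis) against UMIs (x axis) of each B cell of both diets, on log axes, coloured by island of the map. The 32 cells of the distant island of cluster 21 lie to the right of the main trend with a median of 14861 UMIs and 2124 genes, while the side island of cluster 18 and the island of cluster 49 lie along its upper edge.

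The lower share of cluster 18 in HFD was not limited to its island. Within the main body, cluster 18 had 206 CD and 147 HFD cells and a ratio as a share of all cells of 0.653 (0.525 to 0.811). Outside it, the cluster had 42 CD and 30 HFD cells and a ratio of 0.654 (0.395 to 1.07). For cluster 21 the ratios were 1.04 (0.828 to 1.31) within the main body and 0.585 (0.331 to 1.01) outside it, where the intervals overlapped. With the main body alone, the ratio of cluster 18 within B cells was 0.757 (0.608 to 0.939).

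Diets were also spread unevenly over the main body. Across all B cells 47.8% came from HFD. In bands of the main body along the vertical axis of the map, this percent was 32.5% in the lowest band (26.1 to 39.5, 200 cells), 42.6% (37.0 to 48.3, 310 cells) and 43.9% (38.3 to 49.7, 305 cells) in the next ones, and 57.9% (53.0 to 62.6, 420 cells), 54.7% (48.1 to 61.3, 232 cells) and 59.6% (49.3 to 69.3, 99 cells) higher up. The lowest band thus lay below the 47.8% of all B cells and the bands higher up lay above it, with intervals that excluded this value. The intervals of the bands at 42.6% and 43.9% included it.

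Cluster 3 showed this difference by itself. Its cells were 32.6% HFD (25.8 to 40.0, 178 cells) in the lowest band, 49.4% (41.7 to 57.2) and 43.2% (36.2 to 50.4) in the following ones, and 60.6% (54.6 to 66.4, 277 cells) and 66.3% (54.8 to 76.4, 80 cells) in the highest ones. Depth moved with position as well, since median UMIs of cluster 3 went from 2582.5 in the lowest to 2348 in the highest band for CD cells and from 2908 to 2617 for HFD cells. The part of depth in the uneven spread was not tested. In cluster 18, the percent of HFD cells was 34.3% (26.5 to 42.8, 140 cells) from 0.525 to 0.55 on the vertical axis and 51.8% (40.7 to 62.7, 85 cells) from 0.575 to 0.6, with intervals that overlapped. In cluster 21 no difference between bands was detectable, with 53.4% (39.9 to 66.7), 48.7% (40.5 to 56.9) and 60.4% (49.9 to 70.3) from its lowest to its highest band and intervals that all overlapped.

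**Figure D5:**
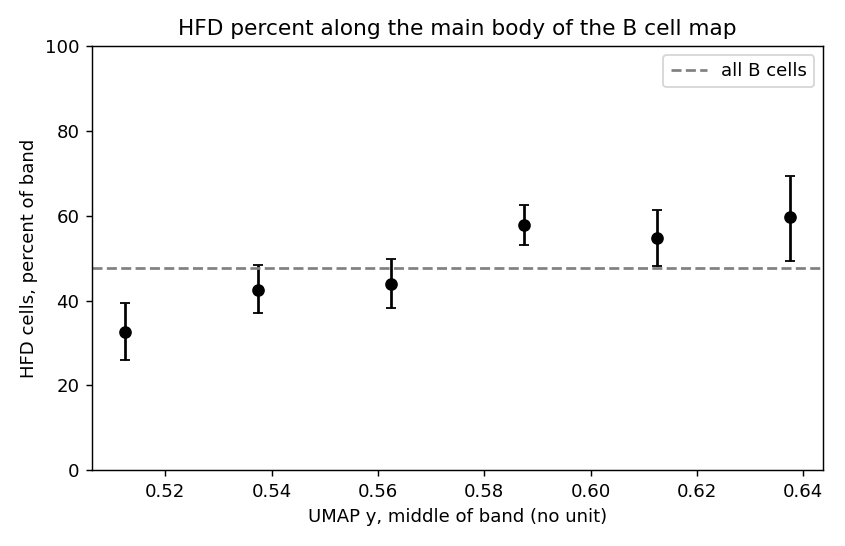
Percent of HFD cells (y axis) in bands of the main body of B cells along the vertical axis of the UMAP (x axis, no unit), for bands of at least 20 cells, with exact 95% intervals and a dashed line at the 47.8% of all B cells. The lowest band is at 32.5% and the 3 highest at 54.7% to 59.6%.

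The spread was uneven from left to right as well. Over 24 squares with at least 20 B cells each, which held 1591 cells, HFD cells made up 19.2% to 66.0%, with a median of 47.6%. The interval excluded the overall 47.8% in 8 squares. At 1 height, from 0.55 to 0.575 on the vertical axis, neighbouring squares held 28.1%, 59.2%, 47.7% and 19.6% HFD cells from left to right, so the bands do not describe all of the unevenness. Around each cell, however, the diets remained mixed: HFD cells were 45.7% of the 15 nearest cells of a CD B cell and 51.5% of those of an HFD B cell, a difference of 5.78 percentage points. This difference ranked 6th of the 17 types, which ranged from -0.382 points in macrophages to 13.1 in basophils, and it was 4.32 points in T cells and 1.31 in NK cells. Local separation of the diets was therefore not particular to B cells. With 1 library per diet, diet and library cannot be told apart in the uneven spread.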

How the data were processed

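The library name in the deposited table gave each cell its diet. The authors mapped reads to GRCm38.p6 (mm10) with Cell Ranger, merged both libraries in Seurat 4.1.0, and removed cells above 20% mitochondrial RNA or below 500 UMIs or 250 genes. The deposited UMI and gene values are raw counts per cell. The deposited mitochondrial value is a percent of a cell's UMIs, and the deposited UMAP coordinates are scores without a unit, on which the authors clustered both libraries together. The labels name a 3' kit and the methods a 5' kit, and no removal of doublets is stated.

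Shares were given exact (Clopper-Pearson) 95% intervals, ratios conditional exact intervals and medians order-statistic intervals. Depth was 42470977 UMIs in 8793 CD cells and 50679251 in 9604 HFD cells. B cells held 7.03% and 5.73% of these UMIs. Both libraries shared 27 cell barcodes, of which 4 belonged to a B cell in either and 1 to a B cell in both. UMIs were not thinned to 1 depth, which needs values of single genes. The functions were tested on simulated data. Positions came from GENCODE M21. Calculations used scipy 1.17.1, pandas 2.3.3 and numpy 2.4.6 in Python 3.11.15, and plots used matplotlib 3.10.9.

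Members, clusters, gene lists and measures were chosen with earlier results of these data known. All B cell clusters were to be named, T and NK cells served for comparison, and of gene lists the 3 markers and counts with examples were given. Islands, bands and squares of the map were chosen after seeing it. Some genes of the lists are not reported here, and the lists were counted without them.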

Additional observations from a re-analysis of the deposited data

Results flagged for a closer look

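Median UMIs of cluster 49 had an HFD to CD ratio of 0.910 (0.258 to 2.03), whereas the other 4 B cell clusters had ratios from 1.05 to 1.18. It drew attention because the direction differed from that of the other clusters. The difference was not tested, and the cluster held 11 CD and 10 HFD cells.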

How the results depend on the processing

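Of 109 values under alternatives, 97 lay inside the reported interval, 6 moved out of it, and 6 crossed 1 from a reported interval that excluded 1. The ratio of B cell shares changed direction with at least 3000 UMIs (1.05), at least 1000 genes (1.01) and at least 2500 UMIs (1.09), and moved to 0.934 with at least 2000 UMIs, to 0.929 as a share of B, T and NK cells and to 0.737 with HFD UMIs scaled and at least 3000 UMIs. B cells per T cell moved to 1.07 with at least 3000 and to 1.16 with at least 2500 UMIs. The ratio of median UMIs became 0.924 with at least 3000 UMIs and 1.01 with at least 1000 genes, and that of median genes became 0.932 and 0.992. By construction, these minimums remove more B cells from the library of lower depth. The ratio of B cell shares was below 1 under 16 of 19 alternatives, and that of B cells per T cell under 15 of 18. For cluster 18 within B cells it was below 1 under 9 of 9. Minimums of 1500 and 2500 UMIs, scaling with a minimum of 2000 UMIs, scaling with a minimum of 3000 for all results but B cells per T cell, and the restriction to the main body were chosen after seeing the data. Removing cells placed among other types took out 1 cell and no B cell, so it says nothing about stability. Its values are nonetheless counted among the 97 and among the alternatives below 1. No paired analysis was possible because there was 1 library for each diet. The 31 and 21 cells of clusters 48 and 49 left ratio intervals within B cells from 0.306 to 1.50 and from 0.379 to 2.58. These intervals are wide, so values of these clusters that lay inside them say little about stability.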
